A study of Rattus norvegicus with 25 samples.

Results

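The miRNAs described here are sperm miRNAs named in earlier rodent work on paternal stress, measured in rats that had taken morphine or saline. The rule uses their names and no measured value. Every mature miRNA in the count matrix was taken whose name begins with rno-miR-375, rno-miR-204-, rno-miR-29c-, rno-miR-32-, rno-miR-193, rno-miR-532- or rno-miR-672-. All 7 name stems had entries, and they gave 14 mature miRNAs of the 562 in the matrix. Of the 14, 9 had enough counts to be tested and 5 did not.

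Small RNA was sequenced from mature sperm of the cauda epididymis of Sprague–Dawley F0 males, purified by a double swim-up. All males self-administered intravenously in 3-h daily sessions for 60 days, receiving either morphine (0.75 mg/kg/infusion) or saline. Sperm was collected when self-administration ended from 7 males that had taken saline (F0_SAL) and 7 that had taken morphine (F0_MOR). It was collected after 90 days of abstinence from saline in 5 males (F0_ABS-SAL) and from morphine in 6 males (F0_ABS-MOR). The males sequenced were a separate cohort from those bred, and their ages were not given in the sources used here. Abstinent males were older and further from testing than nonabstinent males, so age, time since testing and abstinence cannot be told apart. The paper allows a choice of culture medium for releasing the sperm, without saying which samples had which. Medium, and any batch of collection, may therefore also differ with the timepoint. The columns of the matrix are named with a letter and with REG or TO, terms the sources do not spell out. REG and TO were matched to nonabstinent and abstinent by the number of libraries in each group, and libraries are named here by letter.

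A mature miRNA is a short RNA cut from a 5p or 3p arm of a hairpin precursor, and it represses messenger RNAs that pair with its seed, bases 2 to 8 from the 5′ end. Mature sperm make almost no new RNA, and part of their small RNA is taken up from vesicles shed by the epididymal epithelium. In mice, altered levels of several of these miRNAs have been reported in sperm of males stressed in early life or in adulthood, which is why they are grouped. The group is not a single family, as its members come from separate genes with different seeds.

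The sequences of the 9 tested miRNAs are shown because their seeds separate them into distinct regulators. All 14 names matched a mature sequence in RefSeq (assembly GRCr8). Capitals mark the seed.
rno-miR-375-3p: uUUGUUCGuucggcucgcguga
rno-miR-204-5p: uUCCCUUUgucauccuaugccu
rno-miR-532-5p: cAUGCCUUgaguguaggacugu
rno-miR-672-5p: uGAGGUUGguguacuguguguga
rno-miR-32-5p: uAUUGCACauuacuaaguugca
rno-miR-29c-3p: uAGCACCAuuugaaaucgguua
rno-miR-29c-5p: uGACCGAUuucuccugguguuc
rno-miR-532-3p: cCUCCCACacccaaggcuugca
rno-miR-32-3p: gCAAUUUAgugugugugauauu
No seed occurred in more than 1 of these 9. Among the untested miRNAs, rno-miR-193a-3p and rno-miR-193b-3p share a seed and differed at 1 of the 19 positions that could be compared.
rno-miR-193a-3p: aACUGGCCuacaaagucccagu
rno-miR-193b-3p: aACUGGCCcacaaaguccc

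The hairpins are scattered over the rat genome. In GRCr8, Mir375 lies at chr9:83906582-83906656 on the minus strand, within the span of the protein-coding gene LOC134480387. Mir204 lies at chr1:229743461-229743570 on the plus strand, within Trpm3, which encodes a cation channel. Mir32 lies at chr5:76391285-76391354 on the minus strand, within Tmem245. Mir532 (chrX:17919185-17919263, plus strand, within Clcn5) and Mir672 (chrX:73192304-73192383, minus strand, within Nexmif) are on the X chromosome. Mir29c lies at chr13:109099359-109099446 on the plus strand, within the long noncoding RNA LOC102550527. Whether a hairpin falls in an exon or an intron of its host was not determined. The deposited reads had been aligned to the earlier build Rnor_6.0, for which no coordinates are given here.

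Libraries held 1032386 to 3203211 miRNA counts. The median total was 1701012 (F0_SAL) and 1428308 (F0_MOR) at the earlier timepoint, and 2334377 (F0_ABS-SAL) and 2134169 (F0_ABS-MOR) at the later. Depth thus differed with the timepoint, with overlapping ranges, so raw counts at the timepoints are not on the same scale. The 14 miRNAs together held 0.388% to 1.24% of the miRNA counts of a library. The median share was 0.742% (F0_SAL), 0.692% (F0_ABS-SAL), 0.731% (F0_MOR) and 0.572% (F0_ABS-MOR). The floor of 3 counts corresponded to 0.937 CPM in the deepest library and 2.91 CPM in the shallowest. CPM is the count scaled to a common library size, computed here over miRNA counts after TMM scaling, which corrects for differences in library composition.

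Levels spanned about 3 orders of magnitude, and miR-375-3p stood far above the rest. The mean over all 25 libraries was 4838 CPM for miR-375-3p, a miRNA best known from pancreatic islets, which placed it 27th of the 317 miRNAs tested. The next levels were 694 CPM for miR-204-5p, 671.8 CPM for miR-532-5p and 512 CPM for miR-672-5p. In F0_SAL these were 780 ± 190 CPM, 749 ± 231 CPM and 441 ± 147 CPM (SD, n = 7), so the first pair did not differ beyond their spread. The order of these 3 was not the same in every group, as miR-204-5p had the lowest mean of them in F0_ABS-SAL, at 494 CPM beside 660 CPM for miR-532-5p and 555 CPM for miR-672-5p. In F0_ABS-MOR it lay at 542 CPM, under the 667 CPM of miR-532-5p. miR-32-5p followed at 160 CPM and miR-29c-3p at 28.3 CPM. The least abundant over all libraries were miR-29c-5p at 6.65 CPM, miR-532-3p at 5.97 CPM and miR-32-3p at 4.02 CPM. Of these, miR-532-3p was above miR-29c-5p in F0_SAL (6.20 and 3.87 CPM) and F0_MOR (5.29 and 4.63 CPM) and below it in both abstinent groups. These 3 were counted 0 to 51 times per library, so their levels carry large counting error.

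**Figure D1:**
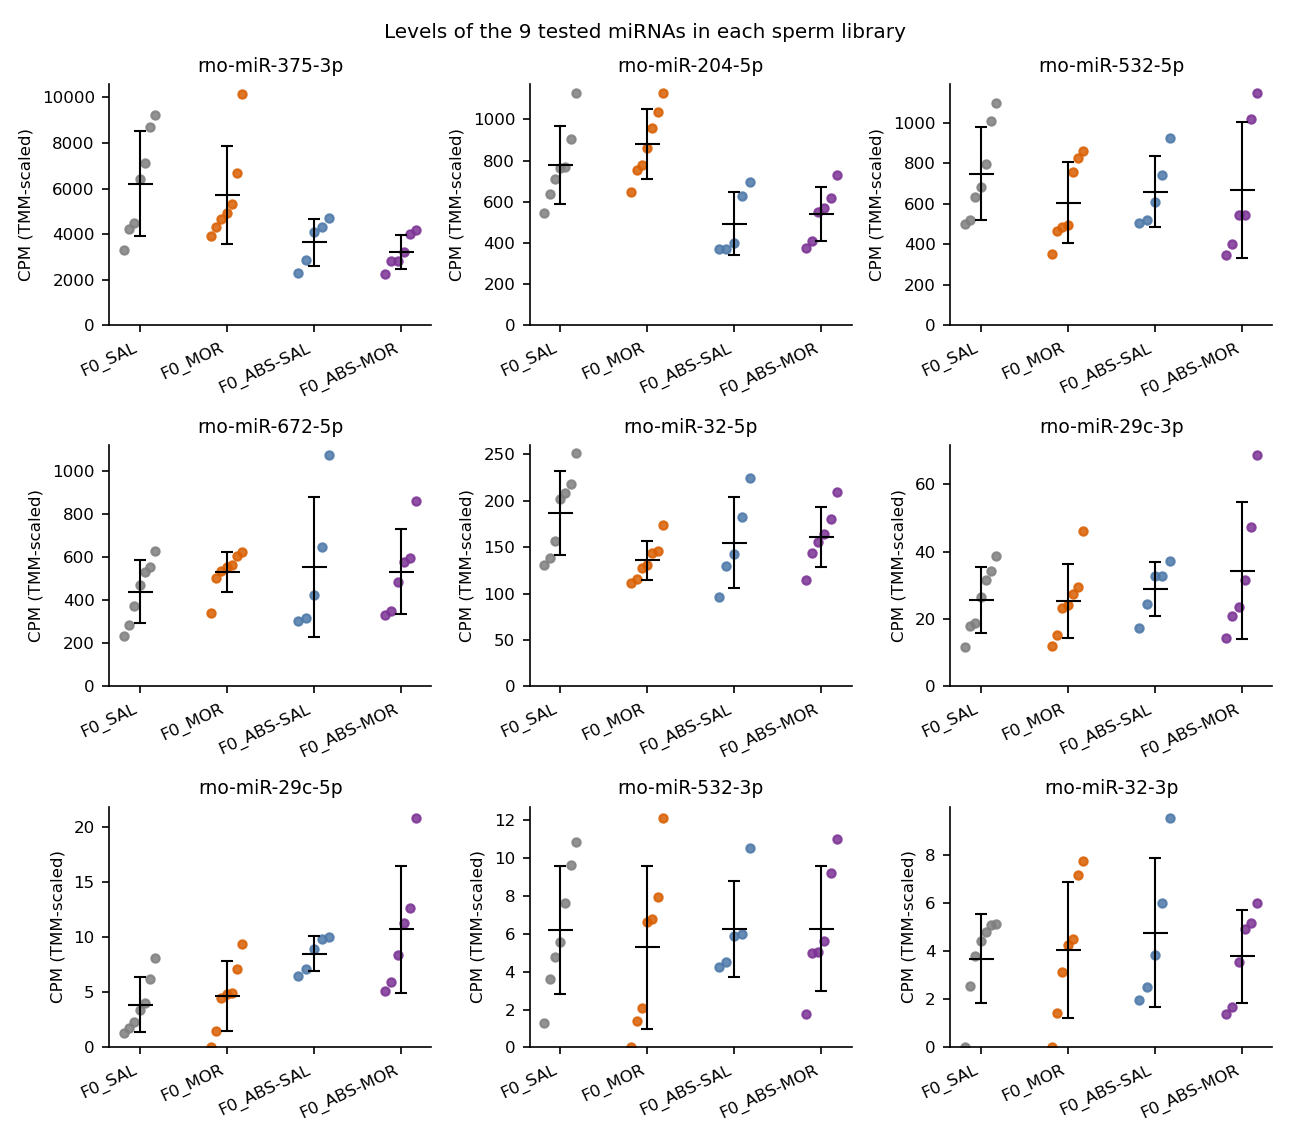
TMM-scaled CPM (y axis, linear from 0, scale differs between panels) of the 9 tested miRNAs in each library of the 4 groups (x axis); points are libraries, and bars show mean and SD for 7, 7, 5 and 6 libraries. miR-375-3p and miR-204-5p sit lower, and miR-29c-5p higher, in the abstinent groups, while most other panels show 4 groups at similar heights.

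The first question was whether these miRNAs differed between morphine- and saline-exposed males. In edgeR's quasi-likelihood test over all 317 miRNAs, a miRNA was called when its adjusted p was under 0.1 and its log2 fold change lay beyond ±0.58. Between F0_MOR and F0_SAL, 0 of the 9 were called, against 0% of all miRNAs tested. Unadjusted p was under 0.05 for 1 of the 9 and for 23 of the 317. As run here, DESeq2 called 0 of all miRNAs, and limma-voom called 1 of them and 0 of the 9. The study's own DESeq2 analysis did report a miRNA as differing between these groups, which is not among the 9. The median log2 fold change was −0.03 over the 9 and 0.06 over all 317. Between F0_ABS-MOR and F0_ABS-SAL, again 0 of the 9 and 0% of all miRNAs were called. There, unadjusted p was under 0.05 for 0 of the 9 and for 4 of the 317, and DESeq2 and limma-voom each called 0. The medians were 0.02 over the 9 and −0.01 over all.

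Of the 9, the smallest p in nonabstinent males was that of miR-32-5p, a relative of the miR-25/92 family. It was counted at 131 to 252 CPM in F0_SAL, with a median of 202. In F0_MOR it ranged from 111 to 174 CPM, with a median of 130. All 7 F0_MOR libraries lay under the F0_SAL median, and 4 of them lay under every F0_SAL library, but the groups overlapped. The log2 fold change was −0.46 (SE 0.19, edgeR adjusted p = 0.547), which did not pass. In abstinent males its level was 155 ± 49.3 CPM (SD, n = 5) in F0_ABS-SAL and 161 ± 32.2 CPM (SD, n = 6) in F0_ABS-MOR, and the log2 fold change was 0.06 (SE 0.22, edgeR adjusted p = 1.00).

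For miR-375-3p, the 95% interval of the log2 fold change of F0_MOR against F0_SAL ran from −0.59 to 0.35. For miR-204-5p it ran from −0.22 to 0.57. For miR-532-5p, a product of an X-linked miRNA cluster, it ran from −0.83 to 0.22, and for miR-672-5p from −0.26 to 0.81. The arm miR-32-3p, at a few counts per library, had an interval from −0.97 to 1.24, so that a doubling could not be told from no change. After abstinence the intervals were −0.72 to 0.35 for miR-375-3p, −0.31 to 0.58 for miR-204-5p, −0.57 to 0.61 for miR-532-5p and −0.66 to 0.55 for miR-672-5p.

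**Figure D2:**
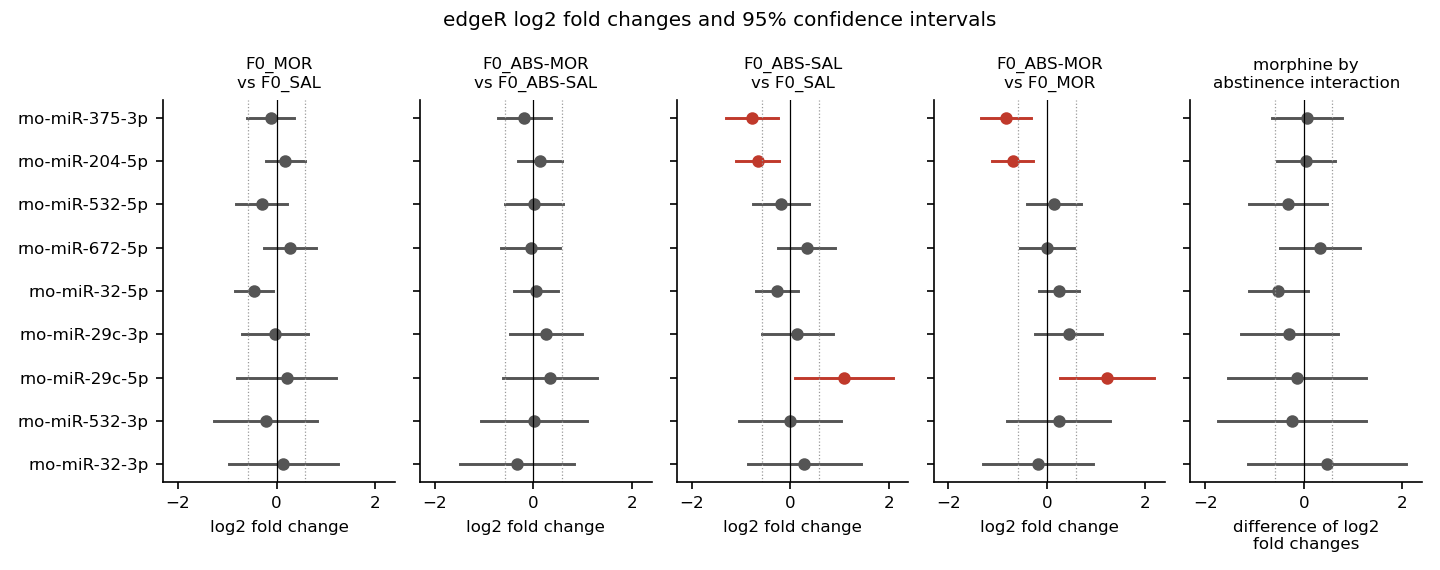
edgeR log2 fold changes (x axis) of the 9 tested miRNAs (y axis) in the 4 pairwise comparisons and the interaction; points are estimates, lines are 95% confidence intervals, dotted lines mark ±0.58, and red marks a called miRNA. Called miRNAs appear in the timepoint comparisons alone, with miR-375-3p and miR-204-5p to the left and miR-29c-5p to the right in both.

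The second question was how the miRNAs differed between the collection timepoints within each exposure. In the saline timepoint comparison (F0_ABS-SAL vs F0_SAL), 3 of the 9 were called, against 33.1% of all 317 miRNAs. Of these, 1 was higher, against 22.4% of all miRNAs, and 2 were lower, against 10.7%. In the morphine timepoint comparison (F0_ABS-MOR vs F0_MOR), which used different males throughout, 3 of the 9 were called, against 21.1% of all. Again 1 was higher, against 11.0%, and 2 were lower, against 10.1%. With 9 miRNAs, these shares were not far from those of all miRNAs. In both comparisons miR-375-3p and miR-204-5p were the miRNAs called lower at the later timepoint, and miR-29c-5p was the 1 called higher. miR-29c-5p passed edgeR's low count filter only through the abstinent groups, in which it is high. Its inclusion among the 9 and its calls are thus not independent of the difference, and the higher share rests on it alone. The median log2 fold change over the 9 was −0.00 in the saline and 0.14 in the morphine comparison, beside 0.00 in each over all 317. In whole sperm pellets, fewer cells of a type and less RNA per cell cannot be told apart.

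miR-375-3p was the most abundant of the miRNAs and fell by the largest amount. In F0_SAL it was counted at 3287 to 9231 CPM, with a median of 6423. In F0_ABS-SAL the 5 libraries E, K, L, R and Y, kept in this order for the miRNAs that follow, held 4077, 4715, 4295, 2281 and 2873 CPM. All 5 lay under the F0_SAL median and 2 lay under every F0_SAL library, so the groups overlapped in part. The log2 fold change was −0.77 (SE 0.26, edgeR adjusted p = 0.0293). In F0_MOR the range was 3929 to 10163 CPM around a median of 4933, and in F0_ABS-MOR it was 2240 to 4169 CPM around a median of 3022. Of the 6 F0_ABS-MOR libraries, 4 lay under every F0_MOR library. The log2 fold change was −0.83 (SE 0.24, edgeR adjusted p = 0.0197).

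Exact tests of log2 CPM were run only where edgeR had called a miRNA on the same libraries. Their p-values and adjusted p-values do not allow for that choice and give no independent support. miR-375-3p differed by −0.73 in the saline comparison (two-sided exact permutation p = 0.0404, 0.121 after adjustment over the 18 exact tests run). In the morphine comparison it differed by −0.79 (exact permutation p = 0.00350, adjusted 0.0315). Leaving out any of 7 of the 12 libraries (C, F, H and O of F0_SAL, or E, R and Y of F0_ABS-SAL) raised the exact p to between 0.0545 and 0.0970, with the difference at −0.78 to −0.57.

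miR-204-5p, known from the retinal pigment epithelium and other epithelia, fell in the same comparisons. Its levels in F0_SAL ran from 546 to 1128 CPM with a median of 763. In F0_ABS-SAL they were 402, 626, 694, 373 and 373 CPM. All 5 F0_ABS-SAL libraries lay under the F0_SAL median and 3 lay under every F0_SAL library. The log2 fold change was −0.66 (SE 0.21, edgeR adjusted p = 0.0253), and without F0_ABS-SAL library Y it was −0.57, short of the fold threshold. In F0_MOR the levels ran from 649 to 1129 CPM with a median of 859, and in F0_ABS-MOR from 376 to 728 CPM with a median of 561. Of the 6 F0_ABS-MOR libraries, 5 lay under every F0_MOR library, and the log2 fold change was −0.70 (SE 0.20, edgeR adjusted p = 0.0197). In exact permutation tests of log2 CPM, p was 0.0202 (adjusted 0.0909) for saline and 0.00233 (adjusted 0.0315) for morphine.

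miR-29c-5p, the minor arm of the miR-29c hairpin, moved the other way at very low counts. It reached the 5.54 CPM that edgeR's low count filter asked of at least 5 libraries in 5 of 5 F0_ABS-SAL and 5 of 6 F0_ABS-MOR libraries but in only 2 of 7 F0_SAL and 2 of 7 F0_MOR libraries. It was thus tested because of the groups in which it is high, and without the filter the saline call was lost (edgeR adjusted p = 0.148). It was counted 2 to 16 times in F0_SAL libraries, that is 1.27 to 8.14 CPM with a median of 3.40. In F0_ABS-SAL it was counted 19, 19, 30, 13 and 28 times, giving 10.1, 7.13, 9.86, 6.52 and 8.95 CPM. Of the 7 F0_SAL libraries, 6 lay under every F0_ABS-SAL library. The log2 fold change was 1.09 (SE 0.49, edgeR adjusted p = 0.0857). The call was lost, at edgeR adjusted p = 0.115 to 0.162, when any library but P or W of F0_SAL or K of F0_ABS-SAL was left out. In F0_MOR it was counted 0 to 14 times, with a median of 4.84 CPM, and in F0_ABS-MOR 11 to 51 times, with a median of 9.84 CPM. The log2 fold change was 1.22 (SE 0.47, edgeR adjusted p = 0.0672), and 5 of the 7 F0_MOR libraries lay under every F0_ABS-MOR library. Without F0_MOR library G (1.02, edgeR adjusted p = 0.119) or F0_ABS-MOR library I (0.93, edgeR adjusted p = 0.188) it was not called. Exact permutation p was 0.0101 (adjusted 0.0606) for saline and 0.0256 (adjusted 0.0923) for morphine.

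**Figure D3:**
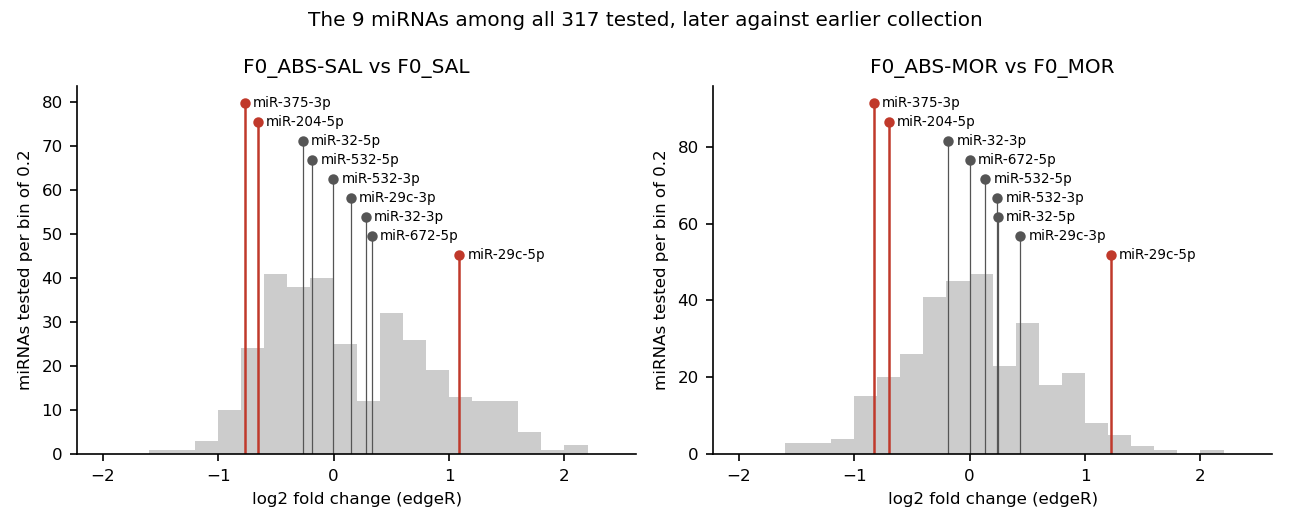
Log2 fold changes (x axis) of all 317 tested miRNAs as a histogram (y axis, miRNAs per bin of 0.2) in the saline (left) and morphine (right) timepoint comparisons; pins mark the 9 miRNAs, red if called, and pin height carries no value. The 9 are spread over both distributions, with miR-375-3p 18th and miR-204-5p 29th from the lowest in each.

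The other 6 tested miRNAs were not called at either timepoint comparison. For miR-532-5p the log2 fold change was −0.18 (95% interval −0.76 to 0.39) in saline and 0.14 (−0.41 to 0.68) in morphine males. For miR-32-5p it was −0.27 (−0.70 to 0.16) and 0.25 (−0.16 to 0.65). For miR-29c-3p, a member of the miR-29 family that targets collagen and other matrix genes, it was 0.15 (−0.57 to 0.86) and 0.44 (−0.24 to 1.12). miR-672-5p had 0.33 (−0.25 to 0.91) and 0.00 (−0.55 to 0.56). The rare arms miR-532-3p and miR-32-3p had −0.00 and 0.28 in saline and 0.24 and −0.18 in morphine males.

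miR-672-5p, from an X-linked hairpin, varied most within F0_ABS-SAL. Its 5 libraries held 651, 424, 303, 1078 and 320 CPM. Library R, at 1078 CPM, lay above every library of the other groups. Without library R the saline timepoint difference of miR-672-5p was −0.08 in place of 0.33. The same library was the lowest of its group for miR-375-3p and miR-32-5p. It held the highest summed level of 5 muscle miRNAs, 81489 CPM beside 17547 to 28778 CPM in the other F0_ABS-SAL libraries. It was also the highest for 6 epithelial markers (18843 CPM beside 8538 to 11795 CPM). For 10 germ cell and sperm markers it was the lowest (285699 CPM beside 296027 to 410310 CPM). For endothelial, erythroid and leukocyte markers it was at neither extreme. Without library R, miR-375-3p (−0.67, edgeR adjusted p = 0.0887) and miR-204-5p (−0.59, edgeR adjusted p = 0.0764) were still called in the saline comparison, and miR-29c-5p (1.13, edgeR adjusted p = 0.138) was not.

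Whether the morphine difference changed with abstinence was tested as an interaction. For this test 0 of the 9 were called, against 0% of all 317. Unadjusted p was under 0.05 for 0 of the 9 and for 10 of the 317, and DESeq2 and limma-voom each called 0. The interaction was 0.06 (95% interval −0.65 to 0.78) for miR-375-3p, 0.04 (−0.55 to 0.64) for miR-204-5p and −0.13 (−1.54 to 1.27) for miR-29c-5p. It was furthest from 0 in relation to its error for miR-32-5p, at −0.51 (−1.11 to 0.08), coded as the morphine difference without abstinence minus that after abstinence.

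The 5 untested miRNAs were near the detection floor. miR-193b-3p was counted 0 to 16 times and was at 0 in 5 of 7 F0_SAL, 1 of 5 F0_ABS-SAL, 3 of 7 F0_MOR and 2 of 6 F0_ABS-MOR libraries. miR-672-3p was counted 0 to 9 times and was above 0 in 20 of 25 libraries. The others were above 0 in 5 libraries for miR-204-3p (0 to 5 counts), 5 for miR-193a-3p (0 to 4 counts) and 6 for miR-193a-5p (0 to 5 counts). miR-193a-5p had 0 counts in all 7 F0_MOR libraries, where 3 counts equal 1.34 to 2.91 CPM. The matrix held no count of 1, so a single read cannot be told from none, and the limit that a listed 0 allows is higher than those values by an amount not known. These 5 were not tested for differences between groups.

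For 3 hairpins both arms passed the low count filter and were compared as a ratio within a library, without scaling between libraries. The rarer arm was counted 0 to 51 times per library in miR-29c, 0 to 18 in miR-32 and 0 to 33 in miR-532. At such counts the 2 added to each arm moves the ratio, and more so in shallower libraries, so the ratios still depend on depth. The 5p arm dominated in miR-532, with a mean log2 ratio of 5p to 3p of 6.73 ± 0.97 (F0_SAL), 6.74 ± 0.92 (F0_MOR), 6.57 ± 0.71 (F0_ABS-SAL) and 6.52 ± 0.42 (F0_ABS-MOR), given as mean ± SD with n = 7, 7, 5 and 6. It dominated in miR-32 too, with 5.29 ± 0.78, 4.83 ± 0.79, 4.92 ± 0.72 and 5.22 ± 0.81 in the same order. In miR-29c the 3p arm was the major arm, with log2 ratios of −2.42 ± 0.96, −2.28 ± 1.23, −1.64 ± 0.59 and −1.55 ± 0.71. The 29c ratio was higher by 0.78 in F0_ABS-SAL than in F0_SAL (exact permutation p = 0.141) and by 0.73 in F0_ABS-MOR than in F0_MOR (exact permutation p = 0.224). None of the 12 arm comparisons had an exact p under 0.05, so the rise of miR-29c-5p was not shown to differ from the change of miR-29c-3p. In the saline comparison the 29c difference was 1.06 (exact permutation p = 0.0346, not adjusted) without F0_SAL library P. In the other 11 of 12 fits that left out a library, exact p stayed above 0.05, so this one is given as the extreme.

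**Figure D4:**
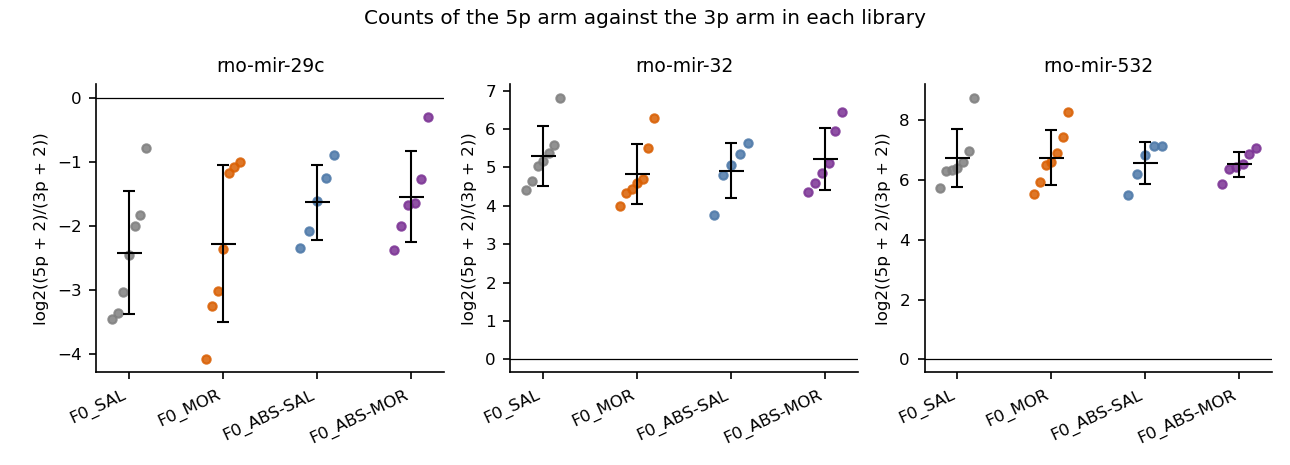
Log2 ratio of raw counts of the 5p arm to the 3p arm, each plus 2 (y axis), of 3 hairpins in each library of the 4 groups (x axis); points are libraries, bars show mean and SD, and the line at 0 marks equal counts. miR-29c lies under 0 in every library, and miR-32 and miR-532 lie well above it.

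miRNAs that share a seed can repress the same messenger RNAs, so the weight of each miRNA within its seed group was measured. Their sequences are shown with the seed in capitals, for comparison with those above.
rno-miR-211-5p: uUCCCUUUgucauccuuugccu
rno-miR-29a-3p: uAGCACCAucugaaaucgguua
rno-miR-25-3p: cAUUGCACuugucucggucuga
rno-miR-204-5p differs from rno-miR-211-5p at 1 of 22 positions and held 98.7% to 100% of their joint counts, so it was the main source of its seed. rno-miR-29c-3p also differs from rno-miR-29a-3p at 1 of 22 positions but held only 0.304% to 1.84% of the counts of the miR-29 3p arms, with rno-miR-29a-3p counted 2769 to 10063 times per library. An alignment that allows a mismatch could move reads between such pairs, and a small share of rno-miR-29a-3p reads would equal the whole count of rno-miR-29c-3p. Whether this happened was not tested. rno-miR-32-5p held 0.605% to 3.17% of the counts carrying its seed, most of which were rno-miR-25-3p.

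Of the 8 other miRNAs with a seed of the tested group, 6 could be tested. In the saline timepoint comparison 2 of the 6 were called, both lower, and in the morphine comparison 3 of the 6, all lower, against 10.7% and 10.1% of all miRNAs called lower. Their median log2 fold changes were −0.57 and −0.48, beside 0.00 over all 317 in each. In saline males the smallest p belonged to miR-25-3p (−0.71, edgeR adjusted p = 0.0489) and to miR-363-3p (−0.44, edgeR adjusted p = 0.0569), which did not reach the fold threshold. In morphine males it belonged to miR-92a-3p (−1.23, edgeR adjusted p = 0.00800) and miR-92b-3p (−1.54, edgeR adjusted p = 0.0141). All 4 carry the seed of miR-32-5p, which was not called in either. None of the 6 were called between morphine and saline males, where the smallest p belonged to miR-92a-3p (0.39) and miR-363-3p (−0.15) without abstinence and to miR-92b-3p (−0.69) and miR-92a-3p (−0.13) after it.

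Clustered miRNAs can come from a shared transcript, so those named in the RefSeq table within 10 kb were also counted. Near Mir532 these were miR-188-5p, miR-362-3p and both arms of miR-501, and near Mir29c they were both arms of miR-29b. Of these 6, 3 could be tested. The table names no 5p arm for Mir362, so rno-miR-362-5p was left out of the 6. It was tested with all miRNAs and not called, at −0.50 in the saline and 0.16 in the morphine timepoint comparison. miR-501-3p was called in the saline timepoint comparison (−0.82, SE 0.36, edgeR adjusted p = 0.0800; 10.7% of all were called lower) and was at −0.77 in the morphine comparison (SE 0.34, edgeR adjusted p = 0.103). miR-29b-3p was not called in either, at 0.49 and 0.39. None of the 3 were called between morphine and saline males, where the smallest p belonged to miR-362-3p (−0.35) and miR-29b-3p (0.14) without abstinence and to miR-501-3p (0.17) and miR-29b-3p (0.04) after it.

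Other miRNAs named in paternal stress work, of the miR-30a, miR-30c, miR-200b and miR-466 groups, gave 10 names, of which 7 could be tested. In the saline timepoint comparison 2 were called higher and 1 lower, and in the morphine comparison 1 was called in each direction. Of all miRNAs, 22.4% were called higher and 10.7% lower in the saline comparison, and 11.0% and 10.1% in the morphine comparison. miR-30c-5p, from a family abundant in many tissues, fell in both (−0.69, edgeR adjusted p = 0.00450, and −0.59, edgeR adjusted p = 0.0141). miR-200b-3p, an epithelial miRNA, rose in the saline comparison (0.66, edgeR adjusted p = 0.0253) and was not called in the morphine comparison (0.47, edgeR adjusted p = 0.103). Its other arm miR-200b-5p was called higher in both (0.88, edgeR adjusted p = 0.0479, and 0.82, edgeR adjusted p = 0.0691). miR-30c-2-3p was at −0.49 in the morphine comparison (edgeR adjusted p = 0.0254), short of the fold threshold. None of the 7 were called between morphine and saline males, where the smallest p belonged to miR-200b-3p (0.27) and miR-200b-5p (0.40) without abstinence and to miR-466c-5p (0.30) and miR-200b-5p (0.34) after it.

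Over the 25 libraries, after each group's mean was removed, each miRNA was compared with the 316 others for likeness of log2 CPM. miR-375-3p was most like miR-25-3p (Spearman rho 0.97). miR-204-5p was most like miR-30a-3p (0.843), miR-32-5p like miR-19a-3p (0.844) and miR-532-5p like miR-203b-3p (0.825). miR-672-5p was most like let-7b-5p (0.75) and miR-29c-3p like miR-497-5p (0.727). The rare arms had weaker likenesses, miR-29c-5p to miR-511-3p (0.666), miR-532-3p to miR-181a-1-3p (0.646) and miR-32-3p to miR-22-3p (0.605). Arms of the same hairpin had rho 0.0331 for miR-29c, 0.167 for miR-32 and 0.304 for miR-532. Each of these pairs holds a rare arm, whose counting error lowers rho, and was not picked as the highest. Whether the arms vary apart is therefore not shown. The values are descriptions of the same libraries, with each partner picked as the highest, and all values in a library share its scaling.

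Some markers of cell types differed with the timepoint. Only the 2 endothelial markers were all called in both comparisons. The counts of markers called are to be read against all miRNAs, of which 22.4% were called higher and 10.7% lower in the saline comparison and 11.0% and 10.1% in the morphine comparison. The 10 germ cell and sperm miRNAs fixed for this check, miR-34c-5p among them, summed to 421574 to 766726 CPM in F0_SAL and to 285699 to 410310 CPM in F0_ABS-SAL. In morphine males they summed to 347275 to 526472 CPM in F0_MOR and to 197765 to 450751 CPM in F0_ABS-MOR. Of the 10, 4 were called lower in the saline comparison and 0 in the morphine comparison. The 6 epithelial markers summed to 6417 to 10608 CPM in F0_SAL and 8538 to 18843 CPM in F0_ABS-SAL, with 4 of 6 called higher, and to 7374 to 11127 CPM in F0_MOR and 8601 to 17043 CPM in F0_ABS-MOR, with 2 of 6 called higher. The 2 endothelial markers were both called higher in both comparisons, from 546 to 783 CPM in F0_SAL and 707.8 to 2821 CPM in F0_ABS-SAL, and from 584 to 733 CPM in F0_MOR and 1036 to 1457 CPM in F0_ABS-MOR.

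Of 5 muscle markers, 4 could be tested, of which 3 were called higher in the saline and 1 in the morphine comparison. They summed to 13603 to 16715 CPM in F0_SAL and 17547 to 81489 CPM in F0_ABS-SAL, and to 13027 to 17617 CPM in F0_MOR and 15622 to 36214 CPM in F0_ABS-MOR, and miR-133b-3p was at 0 throughout F0_MOR and F0_ABS-SAL. No other marker was at 0 throughout a group. Of 3 erythroid markers, 0 were called in the saline comparison and 3 were lower in the morphine comparison, with sums of 929 to 2741 CPM (F0_SAL), 655 to 1256 CPM (F0_ABS-SAL), 948 to 2372 CPM (F0_MOR) and 308 to 1292 CPM (F0_ABS-MOR). Of 6 leukocyte markers, 1 was called higher in the saline comparison, and 1 was higher and 1 lower in the morphine comparison, with sums of 1153 to 2250, 1939 to 2698, 1601 to 2502 and 2001 to 3056 CPM in the same order. None of these markers were called between morphine and saline males. Their part in the changes of miR-375-3p, miR-204-5p and miR-29c-5p was not tested.

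The calls also depended on the scaling of the libraries. When libraries were scaled by total count alone, the median log2 fold change of all miRNAs rose by 0.37 in the saline and 0.19 in the morphine timepoint comparison. The calls over all 317 were then 110 higher and 1 lower in saline males, beside 71 and 34 with TMM, and 57 higher and 14 lower in morphine males, beside 35 and 32. On that scale miR-375-3p was at −0.40 (edgeR adjusted p = 0.312) and miR-204-5p at −0.28 (edgeR adjusted p = 0.437) in saline males, neither called. In morphine males miR-375-3p was still called (−0.66, edgeR adjusted p = 0.0837), and miR-204-5p was not (−0.50, edgeR adjusted p = 0.138). miR-29c-5p was called on that scale in both. With only 1 miRNA called lower in saline males, at most 1 of the lower saline calls given above for other miRNAs and markers could hold on that scale. Which of them held was not examined.

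**Figure D5:**
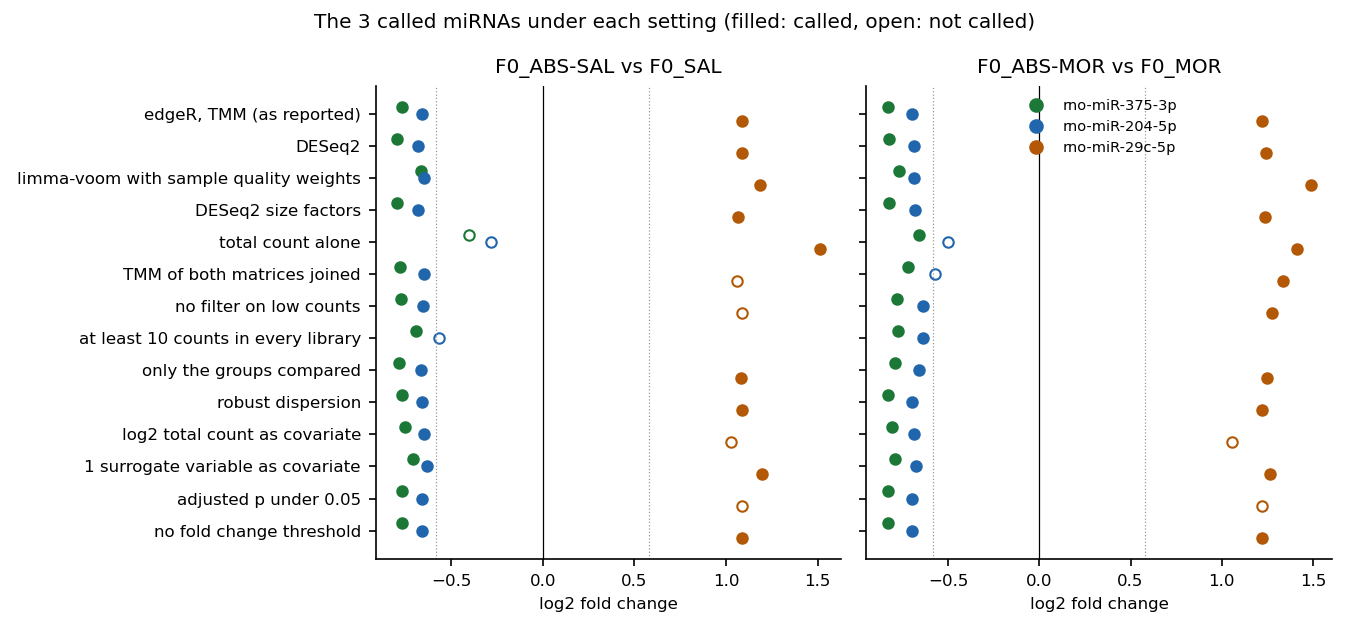
Log2 fold change (x axis) of the 3 called miRNAs under each way of processing (y axis) in the saline (left) and morphine (right) timepoint comparisons; filled points were called, open points were not, and dotted lines mark ±0.58. Directions were kept throughout, while scaling by total count alone moved miR-375-3p to −0.40 and miR-204-5p to −0.28 in saline males; miR-29c-5p has no point where 10 counts were required in every library.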

How the data were processed

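Sperm small RNA from 25 F0 males was analysed. The authors made libraries with the NEBNext small RNA kit, trimmed and annotated forward reads with sRNAbench after alignment to the rat genome (rn6 per the submitters' notes), and deposited raw read counts per mature miRNA. The deposited counts are not normalized and carry no molecular identifiers, so floors and count ranges cover counting error only. The 14 miRNAs and the gene lists were chosen with earlier results of these data known.

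Counts were analysed in R 4.3.3 with edgeR 4.0.16: TMM scaling, edgeR's low count filter, and 1 quasi-likelihood model of the 4 groups over all miRNAs, tested beforehand on simulated data. The thresholds and the combined group factor follow the study, which used DESeq2. Adjusted p-values are Benjamini-Hochberg values over all 317 miRNAs. Standard errors are fold changes divided by the square root of F, an approximation. Exact permutation tests (scipy 1.17.1) used log2 CPM with a prior count of 2, or log2 arm ratios of raw counts plus 2. Named miRNAs are all 14 chosen, the most alike miRNA of each tested one, and the 2 with the smallest p in each list and comparison. Libraries R and P and miR-133b-3p were singled out after their values were seen.

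Alternatives were DESeq2 1.42.0, limma-voom (limma 3.58.1) with sample weights, scaling by the size factors of DESeq2 or by total count, TMM of the miRNA and ncRNA matrices joined, no filter, a minimum of 10 counts in each library, models of the compared groups alone, robust dispersion, total count or 1 surrogate variable (sva 3.50.0) as covariate, an adjusted p under 0.05, no fold threshold, and each library left out. Alternatives for the exact tests, total count alone and each library left out, were added after the data had been seen. The lowest chi-square per degree of freedom over the 300 pairs of libraries was 35.1, so no library appeared under more than 1 letter. No erythroid marker named rno-miR-486 was in the matrix used here.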

Additional observations from a re-analysis of the deposited data

Results flagged for a closer look

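In groups of 5 to 7 libraries, an extreme library was marked when its gap to the next exceeded Dixon's 95% critical value. Over the 52 groups checked, 3 libraries were marked, and chance alone would give about 2.6. For miR-672-5p, library U was the lowest of F0_MOR at a log2 CPM of 8.42 (481 counts, 341 CPM), and the next library was at 8.98. For miR-32-3p, library C was the lowest of F0_SAL at a log2 CPM of 0.0516, which is 0 counts, and the next library was at 1.84. For the log2 ratio of 5p to 3p of miR-532, library F was the highest of F0_SAL at 8.76, and the next library was at 6.98.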

How the results depend on the processing

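No paired analysis was possible because the columns carry letters and not the replicate numbers of the labels. The count of called miRNAs in F0_ABS-SAL vs F0_SAL was 3, and it was 1 with total count alone and 1 with at least 10 counts in every library, where 6 of the 9 could be tested. With 1 library left out it ranged from 1 to 3, and it was 1 without F0_ABS-SAL library Y, where miR-204-5p (−0.57) missed the fold threshold and miR-29c-5p had an edgeR adjusted p of 0.120. The counts in the other comparisons stayed within 1.5 times of those reported, and no called change reversed. In exact permutation tests with total count alone, the saline timepoint differences were −0.35 (p = 0.351) for miR-375-3p and −0.30 (p = 0.343) for miR-204-5p. With 1 library left out, the saline difference of miR-375-3p ranged from −0.86 to −0.57 (exact p = 0.0260 to 0.0970), and the morphine difference of miR-29c-5p from 0.86 to 1.41 (exact p = 0.0126 to 0.0556), above 0.05 without F0_ABS-MOR library I, J or X. The 29c arm ratio difference ranged with 1 library left out from 0.60 to 1.06 in saline males and from 0.43 to 0.95 in morphine males, and it was 1.04 and 1.14 with a prior of 0.5 and 0.79 and 0.46 where both arms had at least 10 counts, with exact p above 0.05 in each of these 4.

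Among single results, 11 calls were lost under the alternatives and 12 with 1 library left out. Most of the 556 and 669 such fits were of uncalled results, which had no call to lose. Under the alternatives the saline call was lost in 1 of 13 for miR-375-3p, 2 of 13 for miR-204-5p and 4 of 12 for miR-29c-5p. The morphine call was lost in 0 of 13, 2 of 13 and 2 of 12, in the same order. miR-204-5p was also lost with 10 counts in every library (−0.57, saline) and with both matrices joined (−0.57, morphine). miR-29c-5p was lost in saline males with both matrices joined, without a filter, with total count as covariate (edgeR adjusted p = 0.121, 0.148 and 0.101), at an adjusted p under 0.05 and in 9 of 12 fits that left out a library (all but P or W of F0_SAL and K of F0_ABS-SAL). In morphine males it was lost with total count as covariate (edgeR adjusted p = 0.120), at an adjusted p under 0.05 and without F0_MOR library G or F0_ABS-MOR library I. Uncalled saline timepoint differences that changed sign with total count alone were those of miR-32-5p (0.12), miR-532-5p (0.20) and miR-532-3p (0.39). The causes were not tested. Depth limited the arms counted a few times per library.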
